A study of Homo sapiens with 4 samples.

Results

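The ID family (inhibitors of DNA binding and differentiation) comprises ID1, ID2, ID3 and ID4. All 4 genes were found by symbol among 16878 genes measured by RNA-seq in PANC-1, an established cell line from a human pancreatic cancer. They were chosen because ID1, ID2 and ID3 rose strongly in the siSIRT1 libraries of this data set, so their levels and changes are given as a description and carry no test. Of the 4 members, 3 had a mean of at least 1 FPKM (fragments per kilobase of transcript and mapped library size, so that levels are per length), and ID4 did not. ID2 passed this filter only through the siSIRT1 libraries, in which it is high.

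The design asked what happens to gene expression when SIRT1, an NAD-dependent deacetylase, is depleted. Cells were transfected for 48 h either with a control (Control, 2 libraries) or with small interfering RNA against SIRT1 (siSIRT1, 2 libraries), and no other genotype or treatment is labelled. For RNA interference the most efficient siRNA per gene was kept, and the study lists 1 sequence against SIRT1, shown here because it is taken to define the treatment, although the labels do not name it. Its 19 bases match the coding sequence of SIRT1 across the junction of exons 5 and 6 of 9 (GENCODE canonical transcript, plus strand, from base 69666687 to base 69667813 of chromosome 10 in GRCh37, intron included), and none of 10 annotated transcripts of the ID genes holds an exact match on either strand. With a single sequence, effects of the sequence itself and of SIRT1 loss cannot be told apart.
siSIRT1: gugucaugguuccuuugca

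The sources do not say whether the libraries of a group came from separate cultures, so p-values measure only the spread between these samples, which may be technical.

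Between 12123 and 12171 genes reached 1 FPKM in each library, and the FPKM values summed to between 397094 and 426279. Depth estimated from the FPKM worth of a single read was 8940000 and 9170000 reads in the Control libraries and 8700000 and 9010000 in the siSIRT1 libraries. SIRT1 (Entrez 23411) stood at 10.46 and 10.25 FPKM in Control, against 1.80 and 2.05 FPKM in siSIRT1. The log2(FPKM + 1) change of -1.96 (SE 0.11) had an adjusted p of 1.33e-05 (limma, Benjamini-Hochberg), and the target gene followed the labels in every library. Among ductal epithelial markers, KRT8 ranged from 2164 to 2745 FPKM, KRT18 from 1484 to 1914 FPKM and KRT19 from 312.8 to 393.9 FPKM, and KRT7 (2.89 to 4.04 FPKM) and EPCAM (5.34 to 11.21 FPKM) were lower. KRT18 (log2 change 0.26, adjusted p = 0.035, limma) and KRT19 (0.25, adjusted p = 0.0178) passed the threshold. Neither did without Control replicate 1 (log2 change 0.31 and 0.28) or without Control replicate 2 (0.21 and 0.21). Both calls were also lost without the filter on low values, without the mean-variance trend, and under median-of-ratios and upper-quartile scaling (adjusted p up to 0.249 and 0.165). KRT8 and EPCAM did not pass, though KRT8 did as higher under 6 alternatives with every library and EPCAM under 2. Of 14 markers of acinar, endocrine, immune, endothelial and stromal cells, 3 were not analysed here, 10 averaged under 1 FPKM with CHGA listed at 0 in all 4 libraries, and the leukocyte gene PTPRC lay between 0.97 and 1.29 FPKM in both groups.

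ID proteins have a helix-loop-helix domain for pairing with other proteins but lack the basic region that contacts DNA. By pairing with E proteins (TCF3, TCF4 and TCF12), which otherwise join tissue-specific bHLH factors to bind E-box sequences and switch on differentiation genes, they hold back differentiation and favour proliferation. ID1, ID2 and ID3 are classical direct targets of bone morphogenetic protein (BMP) signalling, in which a ligand-bound receptor phosphorylates SMAD1, SMAD5 and SMAD9 and these enter the nucleus with SMAD4.

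The sequence just upstream of each member is shown as context. Each line gives the 250 bases before the RefSeq start of transcription (GRCh38.p14), read 5' to 3' on the gene's own strand and ending at the base before the start. ID1 lies on the plus strand at chr20:31605039-31605288, ID2 on the plus strand at chr2:8681806-8682055, ID3 on the minus strand at chr1:23559502-23559751 and ID4 on the plus strand at chr6:19837120-19837369. Each window lies outside the transcript of its own member. In RefSeq the gene span of a long non-coding RNA covers at least part of the windows of ID1 (LOC105372588), ID2 (ID2-AS1) and ID3 (LOC124903876), and no gene covers that of ID4. Capitals mark matches on either strand to CAGAC and GGCGCC (sequences known to be contacted by SMAD proteins), CCAAT (the box bound by NF-Y) and TATAAA (the TATA box), with overlapping matches written as a single run of capitals.
ID1: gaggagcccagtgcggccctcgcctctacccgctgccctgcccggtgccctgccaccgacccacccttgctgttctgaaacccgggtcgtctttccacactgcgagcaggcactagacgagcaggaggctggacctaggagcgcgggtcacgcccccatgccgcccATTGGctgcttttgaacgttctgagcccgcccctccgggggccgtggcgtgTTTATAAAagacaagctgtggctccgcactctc
ID2: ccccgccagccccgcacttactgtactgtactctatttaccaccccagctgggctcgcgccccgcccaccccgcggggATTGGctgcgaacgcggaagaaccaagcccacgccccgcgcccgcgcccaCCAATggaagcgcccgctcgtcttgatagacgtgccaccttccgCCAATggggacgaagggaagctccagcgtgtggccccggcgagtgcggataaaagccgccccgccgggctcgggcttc
ID3: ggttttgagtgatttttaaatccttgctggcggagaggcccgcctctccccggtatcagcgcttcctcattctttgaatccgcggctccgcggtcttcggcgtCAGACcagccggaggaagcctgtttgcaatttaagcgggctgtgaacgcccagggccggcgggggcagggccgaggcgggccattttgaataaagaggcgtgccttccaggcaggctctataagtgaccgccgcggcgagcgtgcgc
ID4: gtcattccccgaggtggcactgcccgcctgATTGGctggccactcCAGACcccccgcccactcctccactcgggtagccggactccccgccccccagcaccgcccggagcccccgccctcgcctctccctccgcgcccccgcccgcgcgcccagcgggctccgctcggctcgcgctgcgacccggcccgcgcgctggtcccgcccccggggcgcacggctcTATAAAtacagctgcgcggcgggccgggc

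The upstream windows shared a high GC content but not a common set of these motifs. GC content was 66.0% for ID1, 69.2% for ID2, 62.0% for ID3 and 78.8% for ID4, against a median of 58.0% over 35116 windows of the same length. CCAAT occurred 3 times upstream of ID2 (first bases at -172, -122 and -78 from the start), once upstream of ID1 (-84), once upstream of ID4 (-220) and not in the ID3 window, and 32.0% of all windows hold it. TATAAA was present upstream of ID1, as a pair of overlapping matches on opposite strands at -33 and -31, and of ID4 at -29, and 10.7% of all windows hold it. CAGAC occurred once upstream of ID3 (-147) and once upstream of ID4 (-205), against 38.0% of windows, and GGCGCC in none of the 4, against 16.4%. The general E-box pattern CANNTG, the site of bHLH factors and not capitalised above, was found once in the ID2 window (-205) and once in the ID4 window (-21), against 61.8% of windows. These matches describe letters in the windows only. Sites further upstream or within the genes were not looked for, and binding was not measured.

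ID1 (Entrez 3397) was the most abundant member in every library. It was measured at 100.81 and 93.56 FPKM in Control, against 497.62 and 463.36 FPKM in siSIRT1. Both siSIRT1 libraries lay far above both Control libraries, and the replicates of each group differed little. The means were 97.2 ± 5.13 FPKM and 480.5 ± 24.2 FPKM (SD, n = 2 each), a 4.94-fold ratio, with single Control and siSIRT1 libraries giving ratios from 4.60 to 5.32. About 814 and 775 reads lay behind the values in Control, against 3909 and 3770 in siSIRT1, as estimated from transcript length and depth. In Control ID1 already ranked 627 and 688 among the 16878 genes by level, and in siSIRT1 it ranked 106 and 102, above 99.4% of genes.

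ID3 (Entrez 3399), a close paralog of ID1, went from a modest to a high level. The Control libraries gave 7.54 and 6.98 FPKM and the siSIRT1 libraries 142.64 and 130.27 FPKM. The groups did not overlap, and the siSIRT1 level of ID3 exceeded the Control level of ID1. The means of 7.26 ± 0.40 and 136.5 ± 8.75 FPKM (SD, n = 2 each) differed 18.8-fold, with a range from 17.3 to 20.4 over single libraries. The estimated reads were 59 and 56 in Control and 1080 and 1021 in siSIRT1. ID3 moved in rank from 7176 and 7541 to 444 and 469 of 16878 genes. The RefSeq annotation places a long non-coding RNA, LOC124903876, over the ID3 gene, and no strand setting of the quantification is stated, so reads of the pair cannot be told apart.

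ID2 (Entrez 3398) was close to the limit of detection in Control. It stood at 0.34 and 0.25 FPKM there and at 17.76 and 18.11 FPKM in siSIRT1. No other member with a mean of at least 1 FPKM started so low, and its siSIRT1 replicates were nearly equal. Means of 0.295 ± 0.064 FPKM and 17.9 ± 0.25 FPKM (SD, n = 2 each) gave a 60.8-fold ratio that ranged from 52.2 to 72.4 over single libraries. That ratio rests on about 4 and 3 reads in the Control libraries, set against 188 and 199 in the siSIRT1 libraries. Taken as 7 against 387 reads and scaled to depth, the ratio was 56.5 with an exact 95% interval from 27.2 to 142. That interval covers counting error only and is no test of the rise, for which the gene was chosen. ID2 also has a processed pseudogene, ID2B, and how reads shared with it were assigned is not stated, which leaves the lowest values uncertain.

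ID4 (Entrez 3400) was barely detected in any library. It was listed at 0 in both Control libraries and at 0.12 and 0.21 FPKM in siSIRT1. These values correspond to about 4 and 7 reads, and a count of 0 allows up to 3 reads, or 0.087 FPKM, in each Control library. ID4 was therefore at or near the limit of this depth in all 4 libraries, and no fold is given for it.

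**Figure D1:**
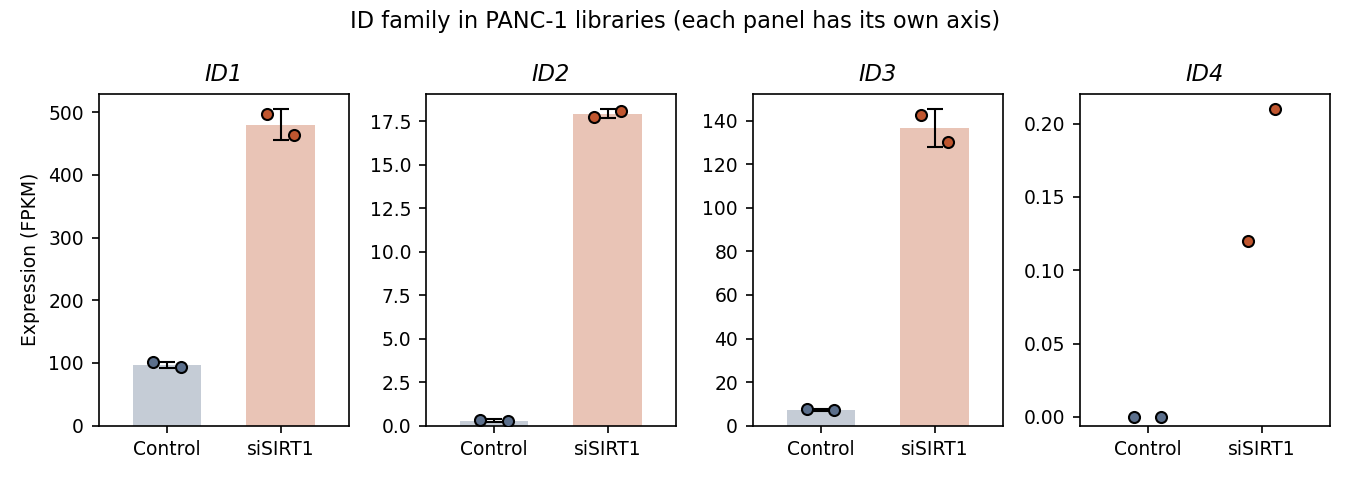
FPKM of ID1, ID2, ID3 and ID4 (y axis, a separate linear scale per panel) in Control and siSIRT1. Points are single libraries, and for ID1 to ID3 bars are means and error bars the SD (n = 2 per group), with siSIRT1 means of 480.5, 17.9 and 136.5 FPKM against Control means of 97.2, 0.295 and 7.26 FPKM; ID4 shows points only and does not exceed 0.21 FPKM.

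ID1, ID2 and ID3 were higher in both siSIRT1 libraries than in both Control libraries. So was ID4, by a few reads, but it is not among the genes tested. The pattern was found in 43.8% of the 12191 genes tested. That share is the background of the comparison and nothing is read from the members' count, since the members were chosen on it. Between the replicates of a group, the log2(FPKM + 1) values differed by 0.107 (Control) and 0.103 (siSIRT1) for ID1, by 0.10 and 0.0267 for ID2, and by 0.0978 and 0.130 for ID3. For genes of similar level the median gap was 0.0448 and 0.111 in the case of ID1, 0.113 and 0.105 for ID2 and 0.0935 and 0.089 for ID3. The Control pair of ID1 was thus further apart than 86.6% of genes at its level, and still differed far less than the groups did. A rise in all cells and a rise in a subset of cells cannot be told apart in bulk RNA, and neither can a change in cell composition and a change in RNA per cell.

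The measured change depended on the number added to FPKM before taking logs, and for ID1, ID3 and ID2 it did so more strongly the lower the gene. ID1 was almost untouched, with a difference in log2(FPKM + pseudocount) of 2.31, 2.30, 2.29 and 2.25 for pseudocounts of 0.1, 0.5, 1 and 5. ID3 gave 4.21, 4.14, 4.06 and 3.53 over the same series. ID2, with its Control level below 0.5 FPKM, gave 5.52, 4.54, 3.87 and 2.12. Which member changed most therefore depended on the setting, as ID2 led at pseudocounts of 0.1 and 0.5 and ID3 led at 1 and 5, where ID2 finally fell below ID1. The difference for ID4 was 1.39, 0.41, 0.22 and 0.05, a value set by the pseudocount and not by the reads.

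**Figure D2:**
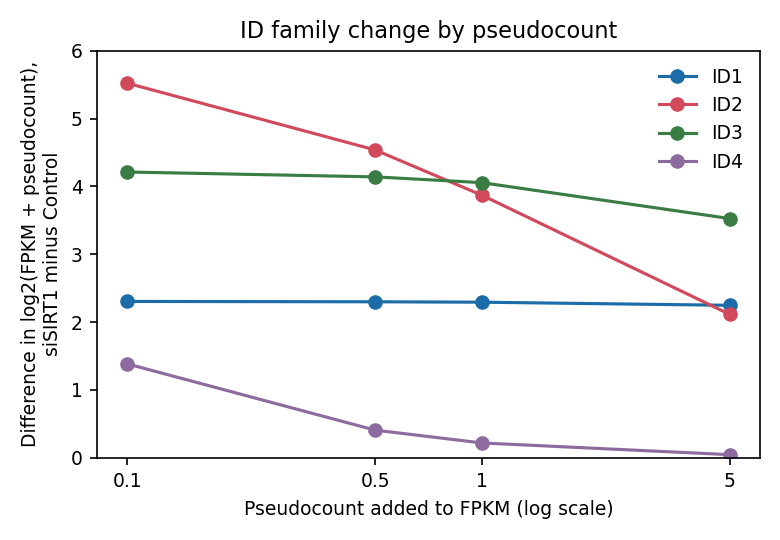
Difference in log2(FPKM + pseudocount), siSIRT1 minus Control (y axis), against the pseudocount (x axis, log scale) for each ID gene, from group means of the log values of 2 libraries each. The line of ID1 stays between 2.31 and 2.25, whereas that of ID2 drops from 5.52 to 2.12 and crosses the lines of ID3 and ID1.

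The place of the members among the largest rises moved accordingly. Of 12191 genes, ID3 ranked 4, 4, 2 and 1 at pseudocounts of 0.1, 0.5, 1 and 5, and ID2 ranked 2, 2, 3 and 6. ID1 ranked 26, 11, 11 and 5, climbing as a larger pseudocount damped the genes of low level. Measured as a plain difference in FPKM, the order was ID1 (383), ID3 (129) and ID2 (17.6). The largest ratio and the largest gain in transcript level thus belonged to different members.

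The composition of the family shifted along with its total. Within every library the order of levels was ID1, ID3, ID2 and ID4, and only ID2 and ID4 in Control were within a few reads of each other. ID1 made up 92.8% of the summed ID transcripts in both Control libraries, against 75.6% and 75.7% with siSIRT1. ID3 went from 6.94% and 6.93% to 21.7% and 21.3%, and ID2 from 0.313% and 0.248% to 2.70% and 2.96%. Put as ratios of FPKM within a library, ID3 over ID1 stood at 0.0748 and 0.0746 in Control against 0.287 and 0.281 in siSIRT1, and ID2 over ID1 was 0.00337 and 0.00267 against 0.0357 and 0.0391. ID1 supplied most of the added transcripts, although its own share fell.

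E proteins are the main partners that ID proteins sequester, so their transcripts were set beside those of the family. The summed ID level was 108.7 and 100.8 FPKM in Control, against 658.1 and 612.0 FPKM in siSIRT1. The sum of TCF3, TCF4 and TCF12 was 50.99 and 51.05 FPKM in Control, against 49.77 and 51.55 FPKM in siSIRT1, so these groups overlapped. The ratio of ID to E protein transcripts accordingly went from 2.13 and 1.97 to 13.2 and 11.9. These are ratios of RNA, and protein was not measured in these libraries.

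**Figure D3:**
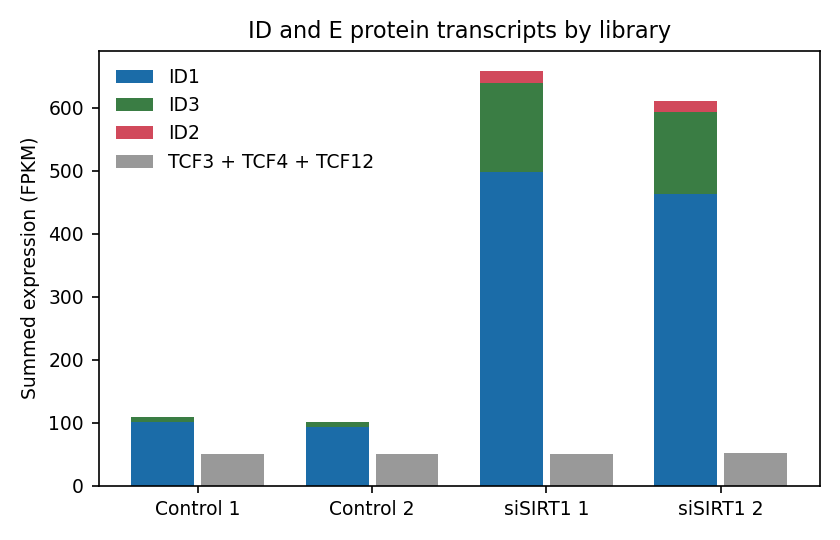
Summed FPKM (y axis, linear) of ID1, ID3 and ID2 as stacked bars, beside the sum of TCF3, TCF4 and TCF12 as grey bars, in each of the 4 libraries (x axis). The ID stacks reach 658.1 and 612.0 FPKM in siSIRT1 against 108.7 and 100.8 FPKM in Control, while the grey bars stay between 49.77 and 51.55 FPKM; ID4 is too low to be drawn.

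Of the E proteins, TCF3 (E2A) was the more abundant and stood at 32.48 and 31.50 FPKM in Control, against 37.34 and 35.23 FPKM in siSIRT1 (log2 change 0.18, adjusted p = 0.0689, limma). TCF3 did not pass the threshold, though it did without siSIRT1 replicate 2 (adjusted p = 0.0408). TCF12 (HEB) went from 18.41 and 19.52 to 12.30 and 16.17 FPKM and fell by 0.40 (adjusted p = 0.0283). The TCF12 call was lost without Control replicate 1 (adjusted p = 0.0571), Control replicate 2 (0.115) or siSIRT1 replicate 1 (0.0842), and it ranged from 0.00167 to 0.12 over the alternatives that keep every library. TCF4 did not exceed 0.15 FPKM. Of 18 tissue-specific bHLH partners of the E proteins, 10 were not analysed here and 7 of the other 8 averaged under 1 FPKM, with the endocrine and neural factor NEUROD1 listed at 0 in all 4 libraries. TWIST2, a mesenchymal factor, was the exception at 3.01 to 4.14 FPKM and did not pass (log2 change 0.11, adjusted p = 0.582).

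Genes around the family were examined by role in 12 lists with 103 entries. Of these, 59 were tested, of which 16 rose and 11 fell by the adjusted p of limma over all 12191 genes, at a threshold of 0.05. The 59 include ATOH8, counted as a rise, and SMAD9, which both met the filter on low values only through the siSIRT1 libraries. The 27 calls are 45.8% of the genes tested in these lists (27.1% higher, 18.6% lower), in a comparison where 37.1% of all genes tested were called, 24.0% as higher and 13.1% as lower. The median log2 change was 0.07 both over the 59 genes and over all 12191. The shares over all genes are the background for the count of each list below. Nothing is read from the total, and 9 of the 27 calls were lost when a single library was left out.

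On the ligand side of the BMP pathway, 1 of 6 tested genes rose and 1 fell. BMP4 went from 22.58 and 23.37 FPKM to 35.03 and 33.52 FPKM (log2 change 0.56, adjusted p = 0.000461, limma). BMP6 fell from 20.09 and 21.39 FPKM to 12.45 and 13.15 FPKM, a log2 change of -0.66 (adjusted p = 0.00047). BMP5, BMP7, BMP8A and BMP8B did not pass the threshold, and BMP2 was at most 0.29 FPKM. The most abundant ligands of the list therefore moved in opposite directions.

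The secreted or membrane-bound antagonists of BMP and activin ligands split evenly, with 2 of 4 tested genes higher and 2 lower. NOG (noggin), which binds BMPs and keeps them from their receptors, went from 15.13 and 16.08 FPKM to 9.14 and 8.13 FPKM (log2 change -0.79, adjusted p = 0.000415, limma). CRIM1, a transmembrane BMP-binding protein, fell from 115.52 and 118.09 FPKM to 71.46 and 89.29 FPKM (-0.54, adjusted p = 0.00271). FSTL3, which binds mainly activins, rose from 24.42 and 22.41 FPKM to 44.27 and 42.82 FPKM (0.87, adjusted p = 6.68e-05). TWSG1, a modulator of ligand binding, had a log2 change of 0.32 and an adjusted p of 0.025. Its call was lost without Control replicate 1 (adjusted p = 0.172), Control replicate 2 (0.0551) or siSIRT1 replicate 2 (0.0918), and under every rescaling tried (adjusted p up to 0.082 over the alternatives with every library). Another 6 antagonists, GREM1 and CHRD among them, averaged under 1 FPKM.

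None of the 5 tested receptors of the BMP pathway passed the adjusted threshold (limma), and neither did SMAD1, SMAD4 or SMAD5. The receptor ACVR1 had an unadjusted p under 0.05. The type II receptor BMPR2 stood at 13.50 and 14.70 FPKM in Control, against 11.85 and 17.02 FPKM in siSIRT1 (log2 change 0.01, 95% interval -0.32 to 0.34), and the type I receptor BMPR1A at 11.94 and 11.87 against 12.37 and 13.53 FPKM (0.11, -0.09 to 0.31). ACVR1, a further type I receptor, lay at 18.03 and 17.67 against 13.78 and 15.92 FPKM (-0.25, adjusted p = 0.0547, limma), and passed as lower without siSIRT1 replicate 2 (adjusted p = 0.0168) and under each rescaling. The log2 changes of the SMADs were 0.19 for SMAD1 (adjusted p = 0.283, limma), -0.15 for SMAD5 (0.387), 0.27 for SMAD4 (0.158) and 0.42 for SMAD9. SMAD9 was also the least abundant of them, at 0.99 and 0.75 FPKM in Control, against 1.54 and 1.44 FPKM in siSIRT1. It passed the filter on low values only through the siSIRT1 libraries and is therefore given without a p. The fits without the mean-variance trend and with replicate number as a block called it higher, with the same limit. Phosphorylation, the step that activates these SMADs, is not visible in RNA.

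Other genes known as direct targets of BMP SMADs mostly rose. Of 10 listed, 6 were tested, and 5 of these had a mean of at least 1 FPKM in Control. Of those 5, 4 rose and none fell by the adjusted p (limma), where 24.0% of all genes tested rose and 13.1% fell. SMURF1 had an unadjusted p under 0.05 as lower. The median log2 change of the 5 was 0.57 against 0.07 over all genes tested. ATOH8, which passed the filter on low values only through the siSIRT1 libraries and is therefore given without a p, a bHLH factor induced by BMP in liver and endothelium, went from 0.44 and 0.39 FPKM to 6.63 and 5.53 FPKM (log2 change 2.32). It is counted among the 16 rises of all lists. SMAD6, an inhibitory SMAD that dampens BMP signalling, rose from 5.33 and 4.79 to 17.15 and 16.09 FPKM (1.54, adjusted p = 1.92e-05, limma). GATA2, a zinc finger transcription factor, rose from 6.15 and 5.91 to 14.80 and 13.91 FPKM (1.13, adjusted p = 7.11e-05). For each of these genes both siSIRT1 libraries lay above both Control libraries, a pattern found in 43.8% of all genes tested.

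SMAD7, the other inhibitory SMAD, rose from 4.85 and 5.71 to 8.31 and 8.25 FPKM (log2 change 0.57, adjusted p = 0.0046, limma). The homeobox gene MSX2 rose from 4.98 and 5.19 to 7.37 and 7.38 FPKM (0.46, adjusted p = 0.00843), a call lost without Control replicate 1 (adjusted p = 0.0685) and kept otherwise (0.00375 to 0.0292 with every library). SMURF1, a ubiquitin ligase for BMP SMADs, did not pass (-0.20, adjusted p = 0.0791, limma). It did pass as lower under quantile, median-of-ratios and upper-quartile scaling and, barely, under equal-sum scaling. MSX1 stayed below the mean of 1 FPKM with 0.55 and 0.42 FPKM in Control, against 1.63 and 1.04 FPKM in siSIRT1, as did BAMBI, which did not exceed 0.56 FPKM, and DLX5, listed at 0 in 3 of the 4 libraries. HAMP was not analysed here. The list holds textbook targets of the pathway that also regulates ID1, ID2 and ID3, and was written with earlier results of these libraries known.

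**Figure D4:**
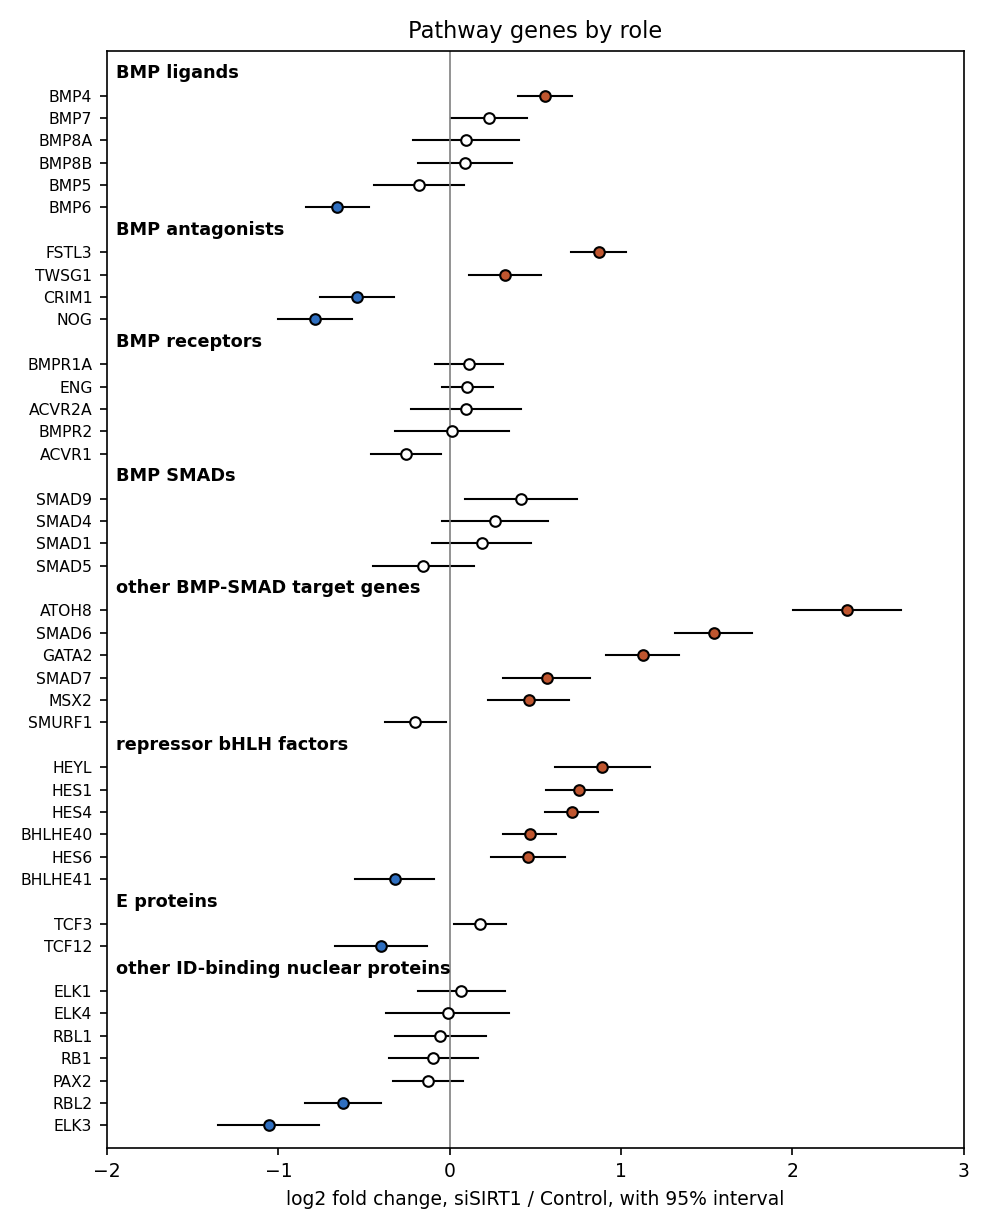
Log2 fold change on the log2(FPKM + 1) scale, siSIRT1 over Control (x axis), for tested genes of 8 lists ordered by role (y axis), with 95% intervals from limma as lines. Filled orange circles passed as higher, filled blue circles passed as lower and open circles did not pass. ATOH8 and SMAD9 met the filter on low values only through the siSIRT1 libraries, so nothing is read from their fill or intervals. The BMP targets ATOH8 (2.32), SMAD6 (1.54) and GATA2 (1.13) lie furthest to the right. The circles of the BMP receptors, SMAD1, SMAD4 and SMAD5 are all open.

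Repressor bHLH factors, which bind DNA themselves and can dimerise with or act beside ID proteins, also changed. Of 8 listed genes 6 were tested, 5 rose and 1 fell, where 24.0% of all genes tested rose and 13.1% fell. Their median log2 change was 0.59, against 0.07 over all genes tested. This list, too, was written with earlier results of these libraries known. HES1, a Notch target and repressor of differentiation genes, rose from 14.59 and 14.36 FPKM to 26.83 and 23.48 FPKM (0.75, adjusted p = 0.000315, limma). HES4 rose by 0.71 (adjusted p = 0.000145) to 68.73 and 62.97 FPKM, HEYL by 0.89 (0.000786) from 1.76 and 1.82 to 4.14 and 4.20 FPKM, and the stress- and clock-regulated BHLHE40 by 0.47 (0.00105). HES6, at 9.14 and 8.22 FPKM in Control, against 12.50 and 12.07 FPKM in siSIRT1, passed at 0.00575 with all libraries but not without Control replicate 2 (adjusted p = 0.0616), against 0.00114 to 0.0282 under alternatives with every library. BHLHE41, the paralog of BHLHE40, went the other way (-0.32, adjusted p = 0.0344), a call lost when any single library was left out (adjusted p from 0.0648 to 0.273).

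Other nuclear proteins reported to bind ID proteins were lower or did not pass. Of 7 tested, 2 fell and none rose. ELK3, an ETS factor of the ternary complex group, went from 10.37 and 10.34 FPKM to 3.86 and 5.13 FPKM (log2 change -1.06, adjusted p = 0.000449, limma). RBL2 (p130), of the retinoblastoma pocket protein family, fell from 9.61 and 9.97 FPKM to 6.0 and 6.01 FPKM (-0.62, adjusted p = 0.00148). RB1, the pocket protein bound by ID2, did not pass, with 8.43 and 8.92 FPKM in Control, against 7.27 and 8.92 FPKM in siSIRT1 (-0.09, 95% interval -0.36 to 0.17). All 5 genes tied to the stability of ID proteins, including the deubiquitinase USP1 (0.03, -0.20 to 0.26), missed the adjusted threshold (limma), with 1 (SMURF2) at an unadjusted p under 0.05. SMURF2 passed as lower without siSIRT1 replicate 2 (adjusted p = 0.0233) and under quantile, median-of-ratios and upper-quartile scaling (from 0.0286).

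Among 10 transcription factors known to act at ID promoters, all of them tested, 1 was called higher and 3 lower. EGR1 was called higher (log2 change 0.44, adjusted p = 0.0194, limma), and SP1 (-0.31, 0.02), STAT5A (-0.39, 0.00868) and STAT5B (-0.25, 0.0206) were called lower. Each of these calls was lost without Control replicate 1, with an adjusted p of 0.0929, 0.0729, 0.0742 and 0.142, and without Control replicate 2, with 0.111, 0.132, 0.0593 and 0.132 in the same order. SP1 and STAT5B were also lost without siSIRT1 replicate 1 (adjusted p = 0.0623 and 0.0528). MYC, ATF3, YY1, CREB1, FOXO3 and SMAD3 did not pass, and of these SMAD3 had the highest level, at 95.66 to 110.04 FPKM. SMAD3 passed as higher without siSIRT1 replicate 1 (adjusted p = 0.033) and CREB1 as lower without siSIRT1 replicate 2 (0.0389), and MYC passed as lower under quantile and upper-quartile scaling (from 0.0477).

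Genes that ID proteins are known to hold down, or E proteins to drive, did not move in a single direction. CDKN1A (p21), a cell cycle inhibitor activated by E proteins, stood at 34.44 and 35.16 FPKM in Control, against 43.64 and 44.61 FPKM in siSIRT1 (log2 change 0.33, adjusted p = 0.00357, limma). THBS1 (thrombospondin), an anti-angiogenic gene repressed by ID1, rose from 4.60 and 4.37 to 9.16 and 12.51 FPKM (1.1, adjusted p = 0.000595). CDKN1C (p57), another cell cycle inhibitor, fell from 7.35 and 7.36 to 2.91 and 2.07 FPKM (-1.27, adjusted p = 0.000281). CDKN2A and CDKN2B were not analysed here.

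The genes most like each member over the 4 libraries were found by the smallest Euclidean distance between log2(FPKM + 1) profiles, after subtracting each gene's Control mean. ID2 and ID3 were near each other, at a distance of 0.284. Nearest to ID3 was ANKRD1, a target of YAP and TGF-beta signalling, which went from 1.01 and 1.06 to 37.72 and 36.65 FPKM (distance 0.271 from ID3 and 0.519 from ID2). Nearest to ID1 were ATOH8 (0.101), the scavenger receptor gene OLR1 (0.226; 0.46 and 0.49 against 6.39 and 7.04 FPKM) and the phosphatase gene DUSP2 (0.234; 0.62 and 0.34 against 7.01 and 6.88 FPKM). The third neighbour of ID2 and ID3 was SERF1A (0.957 and 1.21), which has a near-identical copy, SERF1B, and is uncertain. With 4 libraries in 2 groups, likeness means a similar size of change on the log2(FPKM + 1) scale and little more. That scale damps genes of low level, so a near profile is not a like fold. At a pseudocount of 0.1, ATOH8 changed by 3.58 and ID1 by 2.31.

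The nearest measured genes on the chromosome did not share the size of the members' changes. On each side of each ID gene 3 genes were taken, 24 in all, of which 19 were tested, 5 rose and none fell. The rises are 26.3% of the tested neighbours, near the 24.0% of all genes, so they are no result about the surroundings of the members. Next to ID1, the signal peptide peptidase gene HM13 stood at 256.81 and 263.20 FPKM in Control, against 351.51 and 320.57 FPKM in siSIRT1 (log2 change 0.37, adjusted p = 0.00293, limma), a call lost without Control replicate 1 (0.0619) and held by all alternatives with every library (4.4e-05 to 0.0258). BCL2L1 on the other side did not pass (-0.15, adjusted p = 0.138), though it did as lower without siSIRT1 replicate 1 (0.018) and under quantile, upper-quartile and equal-sum scaling (from 0.0214). None of the 4 tested neighbours of ID2 passed (limma), also before adjustment, among them RNF144A (0.05, adjusted p = 0.751) and KIDINS220 (-0.12, adjusted p = 0.537).

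Around ID3, 3 of 6 tested neighbours rose (24.0% of all genes did). E2F2, a cell cycle transcription factor, went from 3.21 and 3.23 to 5.6 and 5.75 FPKM (log2 change 0.66, adjusted p = 0.00224, limma). ELOA, an elongin subunit, rose by 0.63 (adjusted p = 0.00151), and the ribosomal gene RPL11 by 0.38 (adjusted p = 0.014). The RPL11 call was lost without Control replicate 1 or Control replicate 2 (log2 change 0.43 and 0.33). It was also lost without the filter on low values, without the mean-variance trend and under median-of-ratios scaling (adjusted p up to 0.0883). PITHD1 did not pass (0.32, adjusted p = 0.0514), though it did as higher with a mean of at least 5 FPKM and with replicate number as a block. Near ID4, DEK rose by 0.30 (adjusted p = 0.00605) but not without Control replicate 2 (0.0773). The largest change among the neighbours, 0.66, compares with 2.29, 3.87 and 4.06 for ID1, ID2 and ID3 on the same scale.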

How the data were processed

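RNA-seq was analysed for 4 libraries of PANC-1 cells. The authors deposited FPKM values per gene, in 1 table for each library, rounded to 2 decimals. The submitters' processing notes name HISAT, Bowtie2 and RSEM (and ChIPseeker) without versions or roles. The genome build, read filters and strand setting of the RNA-seq are not given in the sources used here. FPKM divides fragments by transcript length and library total, so a few abundant genes that change can shift all other values.

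Of 16878 Entrez identifiers, 16846 were matched to RefSeq names (GRCh38.p14, also used for gene order and upstream windows, where all 4 members matched). No counts were given. Depth was estimated from the FPKM steps of 508 single-exon genes (GENCODE lengths). Estimated reads, and the limit of 3 reads behind a 0, cover counting error only.

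Since the unit was FPKM, no count test was run. Genes with a mean FPKM of at least 1 (12191) were fitted with limma 3.58.1 (R 4.3.3; lmFit, eBayes with trend) on log2(FPKM + 1), siSIRT1 against Control with no covariate. Adjusted p-values are two-sided, by Benjamini-Hochberg over all 12191 genes, with a threshold of 0.05. Fold changes on this scale understate the change of low genes, and 95% intervals come from the same fit. The script was tested on simulated data. The members, the gene lists and the alternatives were chosen with earlier results of these data known. Named genes are SIRT1, the ID genes, list members past the threshold or otherwise the most abundant or nearest 0, the 3 nearest measured neighbours on each side, and the 3 nearest profiles. Alternatives were pseudocounts of 0.1, 0.5 and 5, no filter, a mean of at least 5 FPKM, quantile, median-of-ratios, upper-quartile and equal-sum scaling, eBayes without trend, the replicate number as a block, and leaving out each library. Gene names and drawings used Python 3.11.15.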

Additional observations from a re-analysis of the deposited data

How the results depend on the processing

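All ID genes kept their direction under every pseudocount, scaling and left-out library tried. As their groups did not overlap, no pseudocount or left-out library could reverse it, so the kept direction is no support for the rises. The log2 change of ID1 (2.29) moved by slightly more than 1 SD of its replicates (0.074, pooled over both groups) under quantile (2.22), median-of-ratios (2.21) and upper-quartile scaling (2.21), which is less than the gap within either pair of replicates. That of ID2 (3.87) moved to 5.52, 4.54 and 2.12 at pseudocounts of 0.1, 0.5 and 5 and to 3.82 with median-of-ratios scaling. That of ID3 (4.06) moved to 4.21, 4.14 and 3.53, and to 3.97 with median-of-ratios scaling, and ID4 (0.22) to 1.39, 0.41 and 0.047 at the same pseudocounts. With each library left out in turn, ID1 ranged from 2.24 to 2.35, ID2 from 3.82 to 3.92, ID3 from 3.99 to 4.12, ID4 from 0.16 to 0.28 and SIRT1 from -2.02 to -1.90. Genes called then ranged from 2691 to 4608 (higher 1721 to 2874, lower 970 to 1734), with the lowest totals without Control replicate 2 (2691) and Control replicate 1 (2744). Pathway genes called ranged from 19 to 29 (higher 13 to 17, lower 6 to 13, with 6 lower without either Control library and 7 without siSIRT1 replicate 1), BMP targets called higher from 4 to 5 (ATOH8 included), repressor bHLH genes called higher from 4 to 5 and neighbours called from 3 to 6, with 3 without either Control library. Leaving out a library reduces the samples of its group to 1, which is then assumed to vary like the other group.

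The share of calls that were higher was 64.8% with FPKM as deposited (2930 higher, 1591 lower), 49.6% with median-of-ratios scaling (2023 and 2053), 51.3% with upper-quartile scaling (2146 and 2038) and 53.3% with quantile normalization (2283 and 1999), which lowered the median change of all genes from 0.07 to between -0.00205 and 0.0189. For 84 single genes, the alternatives with every library gave 905 comparisons with the first call, of which 849 kept it, 23 lost and 33 gained it. Leaving out a library gave another 336, of which 295 kept the call, 30 lost it (14 genes) and 11 gained it (9 genes), and none reversed in either set. A fit with replicate number as a block called 5393 genes (3485 higher, 1908 lower), 32 of them pathway genes (27 without the block). TCF3 (adjusted p = 0.0365, limma), SMAD3 (0.0241), ACVR1 and SMURF2 passed only with the block or other alternatives. Deviations of same-numbered libraries correlated at 0.123 over 12191 genes, but with 2 pairs and no stated source the numbers were not taken as pairing. The depth limits ID4 in all libraries and ID2 in Control.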
